A study of Homo sapiens with 2 samples.

Results

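A set of 10 genes of cell junctions and of the epithelial and mesenchymal cell states was followed in single cells of 3 human ovarian cancer cell lines. They are CDH1, CDH2, CDH6, CTNND1, CLDN1, CLDN3, CLDN4, OCLN, EPCAM and VIM. They were chosen by gene name, and they made up 10 of 57110 gene entries and 53 of 99493 transcripts in the deposited table. IGROV1, SK-OV-3 and COV504, all established lines, were trypsinized and pooled in equal parts before a droplet-based single-cell preparation. The pool was sequenced once on an Illumina instrument, from which only the barcode list was used here, and once on a PromethION nanopore instrument, which reads whole cDNA molecules. Counts were thus analysed from 1 library, with no treatment and no replicate pool, so every difference below is between groups of cells within that library, and every interval is a 95% interval that covers counting error only.

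Epithelial cells are held together by adherens junctions, tight junctions and desmosomes. Classical cadherins bind their like on the neighbouring cell and are anchored to actin through catenins, whereas claudins and occludin seal the space between cells. In an epithelial to mesenchymal transition, transcription factors such as ZEB1 and SNAI2 repress CDH1 and claudin genes, while CDH2 and the intermediate filament protein vimentin are classically gained. Ovarian cancers are unusual among carcinomas in that their cells often carry epithelial and mesenchymal markers together.

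The library held 13052893 counts in 2462 barcodes, all of which were also in the Illumina list. Barcodes with at least 1000 counts numbered 2129. A barcode was placed in a class when 1 of 3 sets of marker genes held at least 75% of its marker counts, and none of the 10 genes was among those markers. ERBB2, NNMT, TSPAN1 and DHRS2 gave 664 ERBB2-high barcodes (median 4956 counts), RARRES2 and TMEM100 gave 534 RARRES2-high barcodes (median 6460) and FOLR1, DEFB1 and CXCL14 gave 696 FOLR1-high barcodes (median 5322). A further 84 barcodes had no marker count and 151 reached no class, and 126 had a leading share between 0.70 and 0.80. A class needed only 1 marker count. Fewer than 3 were found in 56 ERBB2-high, 35 RARRES2-high and 148 FOLR1-high barcodes. The ERBB2-high class was SK-OV-3-like, since the amplicon genes GRB7, MIEN1, STARD3 and PGAP3, which were not part of the rule, were highest there, and CDKN2A had 1 count in it against 83 in the FOLR1-high class. CDKN2A was at 0 counts in the RARRES2-high class as well. Of the IGROV1 markers outside the rule, PAX8 was highest in the FOLR1-high class and ESRP1 in the RARRES2-high class, while FOLR1 is part of the rule and names nothing, so the RARRES2-high and FOLR1-high classes are given no line name. Of the markers of other cell types, CD3E and ALB had no count, PTPRC and HBB had at most 1 per class, HBA1 had 2 to 6 and PECAM1 1 to 8, and the endothelial cadherin CDH5 had 121 counts in the RARRES2-high class, where PECAM1 had 1. Doublets called by Scrublet, 76 of all barcodes and 30 of the classed ones, were kept.

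The 3 classes carried different cadherins and claudins. The RARRES2-high class held CDH1, CDH2 and CDH6 side by side and the lowest VIM. The ERBB2-high class held CDH2 and CDH6 with little CDH1, the lowest CLDN3 and EPCAM and the highest VIM. The FOLR1-high class had almost no count of any of the 3 cadherins, the highest CLDN3 and CLDN1, and VIM between the other two. Levels are counts of a gene per 1000000 counts of the class (CPM), and they are compared between classes for 1 gene at a time, not between genes.

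**Figure D1:**
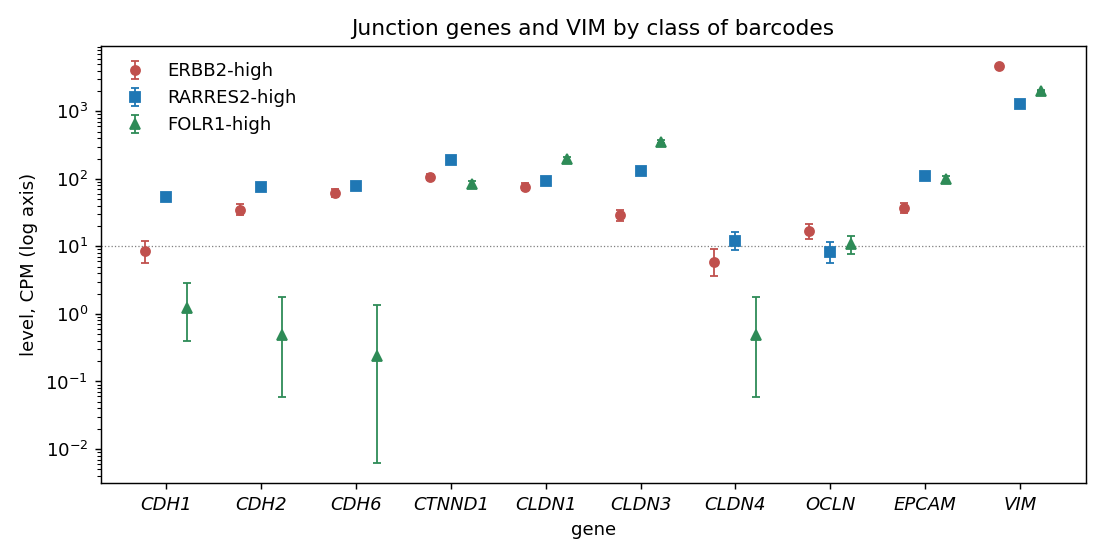
Level of each gene in CPM (log axis) in the 3 classes of barcodes, with exact Poisson 95% intervals; the dotted line marks 10 CPM. CDH1, CDH2, CDH6 and CLDN4 lie below 2 CPM in the FOLR1-high class, where CLDN1 and CLDN3 are at their highest, and VIM is highest in the ERBB2-high class.

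A gene was called when its level differed at least 2-fold between a pair of classes, and 8136 entries with a mean of at least 10 CPM were compared, 9 of the 10 genes among them (CLDN4 was below). Of these 9, 4 were called higher in the RARRES2-high than in the ERBB2-high class (CDH1, CDH2, CLDN3 and EPCAM), where 12.1% of all entries were. The reverse held for 2 (VIM and OCLN), against 20.5%. Over the FOLR1-high class, 4 were higher in the ERBB2-high class (CDH1, CDH2, CDH6 and VIM; 26.1% of all entries) and 4 in the RARRES2-high class (CDH1, CDH2, CDH6 and CTNND1; 21.9%). In the FOLR1-high class 3 were higher than in the ERBB2-high class (CLDN1, CLDN3 and EPCAM; 8.12%) and 2 than in the RARRES2-high class (CLDN1 and CLDN3; 11.4%). The comparisons share classes and are not independent. CDH1 passed the limit of 10 CPM only through the RARRES2-high class, so its calls as higher there follow in part from that limit. The median entry was itself shifted, by 0.21 (log2) in the ERBB2-high over the RARRES2-high class, by 0.46 over the FOLR1-high class, and by 0.21 in the RARRES2-high over the FOLR1-high class. Mitochondrial genes held 7.08% of the counts in the FOLR1-high class against 2.99% and 3.17% in the ERBB2-high and RARRES2-high classes. With mitochondrial and ribosomal protein genes left out of the totals, the shifts were 0.16, 0.07 and -0.14, and the share of calls that were higher in the ERBB2-high than in the FOLR1-high class went from 76.2% to 53.0%, and in the RARRES2-high than in the FOLR1-high class from 65.7% to 44.5%.

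CDH1 encodes E-cadherin, the adhesion receptor of epithelial adherens junctions. It had 211 counts in the RARRES2-high class, or 54.4 CPM (47.3 to 62.2), 30 counts in the ERBB2-high class (8.49 CPM, 5.73 to 12.1) and 5 in the FOLR1-high class (1.21 CPM, 0.394 to 2.83). The 3 intervals did not overlap. The RARRES2-high level was 6.40 times the ERBB2-high level (4.36 to 9.73), which was itself 7.0 times the FOLR1-high level (2.69 to 23.1).

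CDH2 encodes N-cadherin, the classical cadherin of neural and mesenchymal cells. Its order of classes was the same, with 76.6 CPM in the RARRES2-high class (68.1 to 85.8), 35.1 CPM in the ERBB2-high class (29.2 to 41.9) and 0.485 CPM in the FOLR1-high class (0.0587 to 1.75), where all of it was 2 counts in 1 barcode. The RARRES2-high level was 2.18 times the ERBB2-high level (1.76 to 2.71). CDH6 encodes a type II cadherin, K-cadherin, of kidney and Müllerian tissues that is often high in ovarian carcinoma. It stood at 79.4 CPM in the RARRES2-high class (70.8 to 88.8) and 62.6 CPM in the ERBB2-high class (54.6 to 71.4), a ratio of 1.27 (1.06 to 1.52). The FOLR1-high class had a single CDH6 count, against 308 and 221 in the RARRES2-high and ERBB2-high classes. CDH1 and CDH2 therefore did not stand in opposite order across the classes: both were highest in the RARRES2-high class and lowest in the FOLR1-high class.

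CDH2 and CDH6 each had 2 listed transcripts whose difference the long reads could meet. The CDH2 transcript with the internal start, ENST00000399380, begins with an exon of its own at chr18:28036470-28036585 (GRCh38, minus strand) and joins the shared exon at chr18:28013683-28013909, which is the third exon of the full-length ENST00000269141. The bases that tell them apart are the last 15 coding bases before the shared exon, in capitals, followed by its first 15 in lower case:
CDH2 ENST00000269141: AGCCTCTTCTCAATGtgaagtttagcaact
CDH2 ENST00000399380: ATGTTTTCCTTTCAGtgaagtttagcaact
The internal start took 23.2% of the estimated CDH2 counts in the ERBB2-high class (16.3 to 31.8) and 23.1% in the RARRES2-high class (18.5 to 28.5), a difference of 0.101 percentage points. Among counts that the quantification gave whole to 1 transcript, it took 6 of 56 and 21 of 112, with overlapping intervals. RefSeq lists a transcription start for this exon 56 bases further upstream. Its promoter window, chr18:28036642-28036891 on the minus strand (GRCh38.p14), is shown because a transcript from it was counted in both classes that express CDH2. It held a single CANNTG, the core letters of the E-box bound by ZEB and SNAI proteins among others, in capitals, and no GGGCGG or CCGCCC:
CDH2 internal promoter: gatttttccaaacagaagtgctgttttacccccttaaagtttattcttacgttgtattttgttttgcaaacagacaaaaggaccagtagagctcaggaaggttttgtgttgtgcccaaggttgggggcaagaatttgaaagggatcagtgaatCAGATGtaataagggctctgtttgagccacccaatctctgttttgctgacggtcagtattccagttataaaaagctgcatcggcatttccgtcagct
CANNTG was found in 61.8% of 35116 RefSeq promoter windows of 250 bases, so a match is common and is given as a description.

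The 2 CDH6 transcripts share their first 10 exons in GENCODE release 29. ENST00000265071 splices from exon 11 (chr5:31317673-31317924, plus strand) to a last exon that starts at 31322818. ENST00000514738 reads on past that junction and ends at 31318346. The last 15 shared bases stand in lower case and the diverging coding bases in capitals:
CDH6 ENST00000265071: tcgtgatcctactagTGACAGTGGTGCTGT
CDH6 ENST00000514738: tcgtgatcctactagGTAAACTGGTTCTCC
The transcript that reads on took 5.69% of CDH6 counts in the ERBB2-high class (3.17 to 9.85) and 14.5% in the RARRES2-high class (10.9 to 19.1). Whole counts gave 0 of 151 (0 to 2.41%) and 19 of 201 (9.45%, 5.79 to 14.4), so by either measure the intervals did not overlap. The difference of 8.82 percentage points was below the 20-point limit set for a call, and 788 of 4758 entries differed by as much.

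Only genes with at least 50 counts in both classes and more than 1 listed transcript could be compared. These were CDH2, CDH6, EPCAM and the joint entry of CTNND1 between the ERBB2-high and RARRES2-high classes, and EPCAM and CTNND1 in the pairs with the FOLR1-high class. None of them passed the 20-point limit. Of all entries with at least 50 counts in both classes, 2.86% passed it between the ERBB2-high and RARRES2-high classes, 2.44% between the ERBB2-high and FOLR1-high classes and 3.91% between the RARRES2-high and FOLR1-high classes. EPCAM was almost all ENST00000263735, at 92.7%, 95.6% and 94.8% in the ERBB2-high, RARRES2-high and FOLR1-high classes. CDH1 was split between ENST00000261769 (47.5%) and ENST00000611625 (37.6%) in the RARRES2-high class, but only 20 of its 211 counts were whole. CLDN1, CLDN3 and VIM had 1 listed transcript each. CDH1, CLDN4 and OCLN had too few counts in at least 1 class of each pair for a comparison.

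CTNND1 encodes p120-catenin, which binds the juxtamembrane tail of classical cadherins and keeps them at the surface. The deposited table joins it with the neighbouring TMX2, a thioredoxin-related membrane protein gene, in 1 entry, so both parts were also counted from their own transcripts. The joint entry stood at 108, 189 and 84.6 CPM in the ERBB2-high, RARRES2-high and FOLR1-high classes. CTNND1 transcripts alone gave 62.6 CPM (54.6 to 71.4), 105 CPM (95 to 116) and 49.0 CPM (42.5 to 56.2), and TMX2 transcripts 45.3, 84.3 and 35.6 CPM, in the same order. The RARRES2-high to FOLR1-high ratio of the joint entry was 2.24 (1.97 to 2.55), but without mitochondrial and ribosomal protein genes in the totals its log2 was 0.82, below the 2-fold limit. Under that scaling the ERBB2-high and FOLR1-high levels changed order as well, from a log2 ratio of 0.35 to -0.04. The choice of CTNND1 exons, known to differ between epithelial and mesenchymal cells, was not resolved: of 221, 407 and 202 counts only 7, 10 and 8 were whole, and the median share of its 30 transcripts, 3.14%, 2.94% and 3.21%, lay near the 3.33% of an even split.

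Claudins are the transmembrane strands of tight junctions, and CLDN3 and CLDN4 are among the best known surface proteins of ovarian carcinoma. CLDN3 gave 1455 counts in the FOLR1-high class, or 353 CPM (335 to 371), 129 CPM in the RARRES2-high class (118 to 141) and 28.9 CPM in the ERBB2-high class (23.5 to 35.1). The span from the FOLR1-high to the ERBB2-high class was 12.2-fold (9.99 to 15.1), and the RARRES2-high level was 4.48 times the ERBB2-high one (3.62 to 5.60). CLDN1 was also highest in the FOLR1-high class, at 197 CPM (183 to 211), against 93.1 CPM in the RARRES2-high class (83.7 to 103) and 76.1 CPM in the ERBB2-high class (67.3 to 85.8). The last 2 differed 1.22-fold (1.04 to 1.44), with overlapping intervals. CLDN4 went the other way, with 47 counts in the RARRES2-high class (12.1 CPM, 8.90 to 16.1), 21 in the ERBB2-high class (5.94 CPM, 3.68 to 9.09) and 2 in the FOLR1-high class (0.485 CPM, 0.0587 to 1.75). CLDN3 and CLDN4 lie close together on chromosome 7, at chr7:73768997-73770270 and chr7:73827744-73832693, yet CLDN3 was highest and CLDN4 lowest in the FOLR1-high class.

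The CLDN3 and CLDN1 promoters are shown because, as described further on, both genes were lower at high VIM inside 2 of the classes. Capitals mark GGGCGG and its reverse complement CCGCCC, the GC box bound by SP1, and would mark CANNTG. The CLDN3 window, chr7:73770271-73770520 on the minus strand, was 71.6% G or C and held 4 GC boxes:
CLDN3 promoter: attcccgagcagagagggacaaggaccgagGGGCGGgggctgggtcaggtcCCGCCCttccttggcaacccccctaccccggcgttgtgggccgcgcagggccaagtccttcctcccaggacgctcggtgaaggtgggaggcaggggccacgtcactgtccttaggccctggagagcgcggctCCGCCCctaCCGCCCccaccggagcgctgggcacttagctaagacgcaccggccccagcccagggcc
The CLDN1 window, chr3:190322476-190322696 on the minus strand up to the start in the authors' table, held 2 GC boxes:
CLDN1 promoter: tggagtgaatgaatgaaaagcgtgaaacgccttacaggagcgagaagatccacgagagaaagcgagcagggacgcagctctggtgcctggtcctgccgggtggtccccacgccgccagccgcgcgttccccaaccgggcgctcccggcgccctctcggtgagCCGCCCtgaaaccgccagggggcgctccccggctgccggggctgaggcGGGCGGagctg
Neither window held CANNTG, which says only that these letters are not in them. GC boxes were found in 42.6% of all promoter windows of 250 bases and in 39.1% of windows of 221 bases, and CANNTG in 58% of the latter.

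OCLN, the gene of occludin, was low throughout. It had 59 counts in the ERBB2-high class (16.7 CPM, 12.7 to 21.5), 44 in the FOLR1-high class (10.7 CPM, 7.75 to 14.3) and 32 in the RARRES2-high class (8.25 CPM, 5.64 to 11.6). The last 2 could not be told apart, at a ratio of 1.29 (0.802 to 2.11). The ERBB2-high level was 2.02 times the RARRES2-high level (1.30 to 3.22), and that call was lost under several settings, for example at a log2 ratio of 0.97 when classes needed 90% of the marker counts.

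EPCAM encodes the epithelial cell adhesion molecule used to capture carcinoma cells from blood. It stood at 112 CPM in the RARRES2-high class (101 to 123) and 101 CPM in the FOLR1-high class (91.4 to 111), a ratio of 1.11 whose interval, 0.965 to 1.27, included 1, and which changed sign without mitochondrial and ribosomal protein genes (log2 -0.19). The ERBB2-high level was 37.4 CPM (31.3 to 44.3), lower than the RARRES2-high level by 2.99-fold (2.45 to 3.66) and than the FOLR1-high level by 2.70-fold (2.21 to 3.31).

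VIM encodes vimentin. All 3 classes expressed it, at 4640 CPM in the ERBB2-high class (4570 to 4712), 2008 CPM in the FOLR1-high class (1965 to 2052) and 1279 CPM in the RARRES2-high class (1244 to 1315). The ERBB2-high level was 3.63 times the RARRES2-high level (3.51 to 3.75) and 2.31 times the FOLR1-high level (2.25 to 2.37). The latter fell under the 2-fold limit, at a log2 ratio of 0.81, without mitochondrial and ribosomal protein genes in the totals. VIM was unevenly spread over RARRES2-high barcodes. No VIM count was found in 107 of its 534 barcodes, against 3 of 664 (0.452%) in the ERBB2-high class and 17 of 696 (2.44%) in the FOLR1-high class. Those 107 barcodes were not shallow, with a median of 6141 counts, whereas the 17 FOLR1-high ones had 2873.

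Shares of barcodes with a count followed the summed levels. The classes differ in depth, so each barcode was thinned to 2000 counts, which left out 44, 30 and 26 barcodes of the ERBB2-high, RARRES2-high and FOLR1-high classes. After thinning, VIM was found in 98.5%, 69.4% and 92.4% of barcodes, in that order of classes (99.5%, 80.0% and 97.6% unthinned). CLDN3 was found in 7.26%, 18.8% and 48.7% (12.3%, 38% and 77% unthinned), and EPCAM in 7.58%, 19.0% and 15.4% (16.1%, 39.5% and 30.6%). CDH1 was found in 2.10% of ERBB2-high and 7.54% of RARRES2-high barcodes (4.22% and 17% unthinned). In the FOLR1-high class, unthinned, CDH1 was in 0.575% of barcodes, CLDN4 in 0.287% and CDH2 and CDH6 in 0.144% each. The CDH1 share was 5 counts in 4 barcodes (0.157% to 1.46%). Beside these stand the shares of genes that lead another class, at median depths of 5322 counts in the FOLR1-high and 6460 in the RARRES2-high class. Of the leading RARRES2-high genes, RGCC had no count in FOLR1-high barcodes, ANKRD1 was in 1.72% of them and KRT7, which was added to these genes later, in 0.287%. Their levels in the RARRES2-high class were 66.3, 118 and 680 CPM. CAPS, which leads the ERBB2-high class, was in 4.74%. These shares differed between genes and did not follow the levels, so they set no single background, and the 4 low FOLR1-high shares are read neither as expression nor as its absence.

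**Figure D2:**
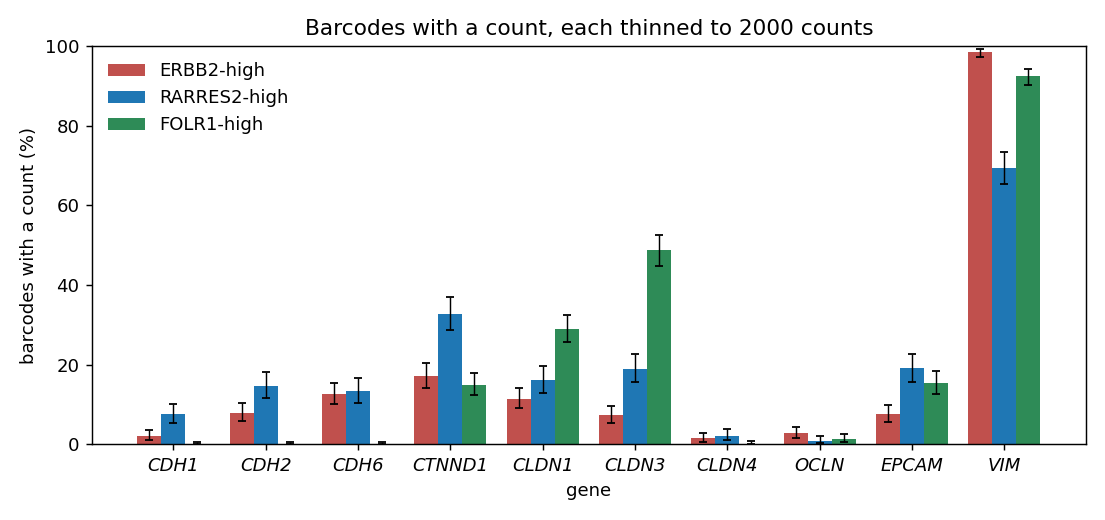
Percentage of barcodes with at least 1 count of each gene in the 3 classes, after each barcode was thinned to 2000 counts; error bars are exact 95% binomial intervals. VIM is found in 69.4% of RARRES2-high barcodes against over 90% in the other classes, and CLDN3 in 48.7% of FOLR1-high barcodes.

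Lists of further genes of the same junctions and states put the 10 genes in context, as counts of calls beside the share over all entries given above. Some listed genes were above 10 CPM in 1 class alone and passed the limit on mean level through it. These were SNAI2 for the ERBB2-high class and ST14, OVOL2, CDH13 and CLDN11 for the RARRES2-high class. Their calls as higher in that class follow in part from the limit. Of 9 mesenchymal genes compared, 9 were higher in the ERBB2-high than in the FOLR1-high class, with a median log2 ratio of 5.34 against 0.46 over all entries, and 8 were higher in the RARRES2-high than in the FOLR1-high class (median 5.94 against 0.21). Between the ERBB2-high and RARRES2-high classes the list was split, with 3 genes higher in the former and 2 in the latter. The median log2 ratio of the ERBB2-high over the RARRES2-high class was -0.38, against 0.21 over all entries. Genes at 0 entered these medians at 3 counts. AXL, a receptor tyrosine kinase, stood at 50.1 and 75.5 CPM in the ERBB2-high and RARRES2-high classes and had 2 counts in the FOLR1-high class. TGFBI, a secreted matrix protein, stood at 48.4 and 108 CPM, with 2 counts in the FOLR1-high class, and SPARC, a collagen-binding matrix protein, at 97.4 and 127 CPM, with 1. The FOLR1-high class therefore combined VIM at 2008 CPM with the other mesenchymal genes compared at 5.33 CPM or below. ZEB1, the repressor of CDH1, was an exception at 29.1 CPM there, close to its 23.7 CPM in the RARRES2-high class and below the 102 CPM of the ERBB2-high class. SNAI2 was at 29.4, 4.38 and 0 CPM in the ERBB2-high, RARRES2-high and FOLR1-high classes.

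Of 11 epithelial genes compared, 7 were higher in the RARRES2-high than in the ERBB2-high class (median log2 ratio 2.47 in that direction, against -0.21 over all entries) and 7 than in the FOLR1-high class (1.94 against 0.21). ST14, a membrane protease of epithelia also called matriptase, had 134 counts in the RARRES2-high class (34.5 CPM) and 3 in each of the others. SPINT1, its inhibitor, stood at 3.68, 35.3 and 16.2 CPM in the ERBB2-high, RARRES2-high and FOLR1-high classes, and OVOL2, a transcription factor that opposes ZEB1, at 6.51, 39.7 and 1.45 CPM. KRT7 stood at 92.0, 680 and 0.970 CPM. In the other direction 3 epithelial genes were higher in the FOLR1-high than in the ERBB2-high class, and 1 was higher there than in the RARRES2-high class. The latter was KRT19, a keratin of simple epithelia, at 644, 530 and 1640.4 CPM.

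Of 8 adherens junction genes compared, 2 were higher and 2 lower in the RARRES2-high than in the ERBB2-high class. CDH13, a cadherin with a lipid anchor in place of a cytoplasmic tail, stood at 7.08 CPM in the ERBB2-high class and 98.2 CPM in the RARRES2-high class. It had no count in the FOLR1-high class. With that 0 set to 3 counts, its level was 135-fold lower there than in the RARRES2-high class. CDH11, a mesenchymal cadherin below the limit on mean level, had 8, 92 and 0 counts. Of the adherens genes, 3 were higher in the ERBB2-high than in the FOLR1-high class and 0 the other way. In the RARRES2-high class 2 were higher than in the FOLR1-high class and 1 was lower. Among cytoplasmic partners of cadherins, CTNNB1 stood at 50.9 CPM in the FOLR1-high class against 39.1 and 24.7 CPM in the ERBB2-high and RARRES2-high classes. In the same order JUP stood at 58.9 against 32.6 and 88.2 CPM, and CTNNA1 at 127 against 368 and 220 CPM. Of 11 tight junction genes, CLDN11 was nearly confined to the RARRES2-high class (2, 169 and 1 counts in the ERBB2-high, RARRES2-high and FOLR1-high classes) and CLDN16 was highest in the FOLR1-high class (1.98, 19.3 and 59.4 CPM). Between the RARRES2-high and FOLR1-high classes 3 of the 11 were called in each direction. CLDN16 and the polarity genes PARD6B and PATJ were higher in the FOLR1-high class, the last 2 by 2.31-fold and 4.0-fold. CLDN11, CLDN7 and MARVELD2 were higher in the RARRES2-high class, the last 2 by 5.07-fold and 3.90-fold. Of 6 desmosome genes, 4 were higher in the RARRES2-high than in the FOLR1-high class, among them the plaque protein genes PKP2 (68.6 against 10.2 CPM) and PKP3 (19.8 against 7.27 CPM). PKP4, another plaque protein gene, was called the other way, at 129, 34.3 and 80 CPM in the ERBB2-high, RARRES2-high and FOLR1-high classes. DSP, the gene of desmoplakin, differed least of the 6, at 362, 351 and 300 CPM.

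**Figure D3:**
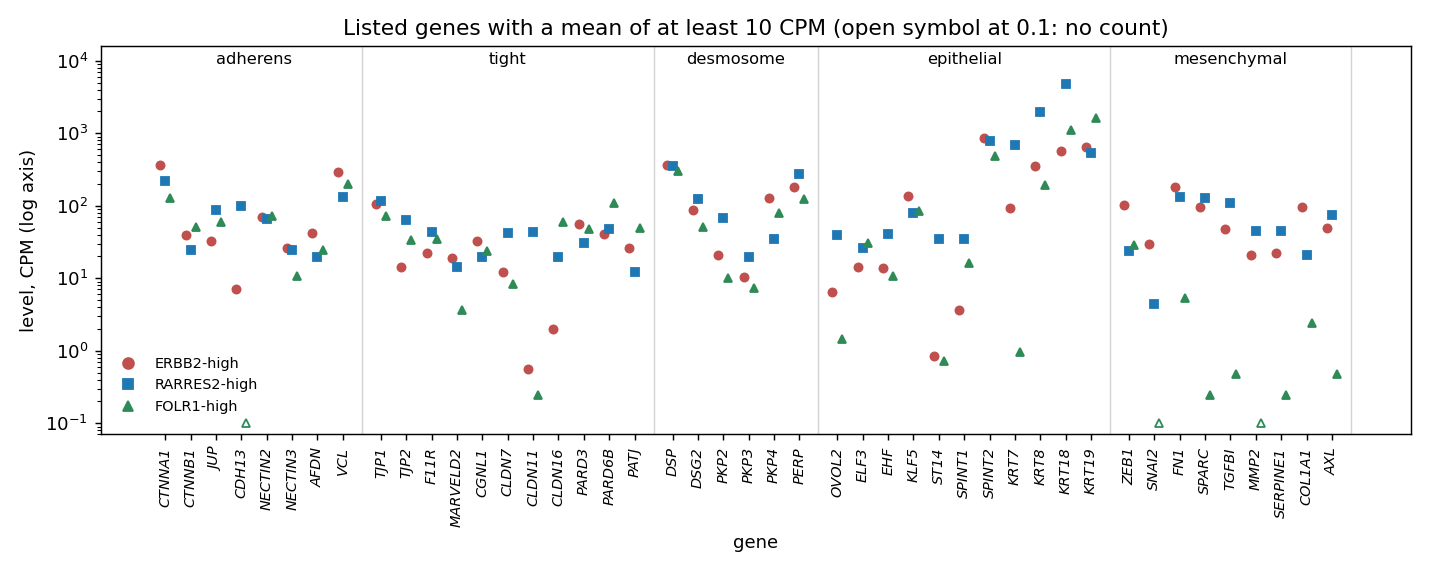
Level in CPM (log axis) of each listed gene with a mean of at least 10 CPM, by list and class; open symbols at 0.1 mark classes with no count. In the mesenchymal list the FOLR1-high points lie below both other classes except for ZEB1, where they lie just above the RARRES2-high point.

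The spread of VIM between barcodes allowed the genes to be compared inside each class. This comparison was added after the data had been seen. The barcodes of a class were ranked by VIM counts per 10000 counts and divided into 3 equal parts, or terciles, and the low and high terciles were compared for every entry with a mean of at least 10 CPM in both together. The terciles are ranges of a continuous measure, not cell types. In the RARRES2-high class 39 of 534 barcodes lay within 20% of the lower dividing value and 92 within 20% of the upper. More lay there in the other classes, with 142 and 165 of 664 ERBB2-high barcodes and 137 and 177 of 696 FOLR1-high barcodes. VIM itself is not counted, since it set the order.

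In the RARRES2-high class, 5 of 8 genes were at least 2-fold higher in the low-VIM tercile, where 6.65% of 7697 entries were, and none in the high-VIM tercile, where 4.09% were. Of the 5, CDH1 and CLDN4 passed the limit of 10 CPM only through the low tercile, so their calls follow in part from that limit. CDH1 had 167 counts in the low tercile (126 CPM, 107 to 146), 43 in the middle tercile (30.8 CPM, 22.3 to 41.5) and 1 in the high tercile (0.866 CPM, 0.0219 to 4.83). The low to high ratio was 145, with an interval from 25.7 to 5764. CLDN3 stood at 250, 107 and 17.3 CPM from the low to the high tercile, a 14.4-fold ratio (9.19 to 23.9), and EPCAM at 198, 98.2 and 28.6 CPM, a 6.92-fold ratio (4.81 to 10.3). CLDN4 had 31, 14 and 2 counts (13.5-fold, 3.43 to 116). CLDN1 differed less, at 125, 89.6 and 60.6 CPM (2.06-fold, 1.55 to 2.76), and CTNND1 with TMX2 at 250, 158 and 157 CPM (1.59-fold, 1.33 to 1.92).

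The other cadherins did not follow CDH1. CDH2 stood at 58.7, 87.4 and 84.0 CPM from the low to the high tercile, higher in the high tercile by 1.43-fold (1.05 to 1.95), and CDH6 at 82.0, 81.0 and 74.5 CPM, with a low to high ratio of 1.10 whose interval (0.822 to 1.48) included 1. Barcodes with low VIM thus carried CDH1 on top of CDH2 and CDH6, not in their place. Of the 91 RARRES2-high barcodes with a CDH1 count, 38 also had CDH2 (41.8%) and 41 had CDH6 (45.1%), against 36.6% and 33.4% of the 443 barcodes without CDH1, and the intervals overlapped. EPCAM was found in 83.5% of barcodes with CDH1 and 30.5% of those without, and CLDN3 in 74.7% and 30.5%. Barcodes with a CDH1 count were deeper, with a median of 9980 counts against 6088, and the part of depth in these shares was not tested. Their median VIM was 0.696 per 10000 counts against 13.4, and 47 of the 91 had at least 1 VIM count.

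**Figure D4:**
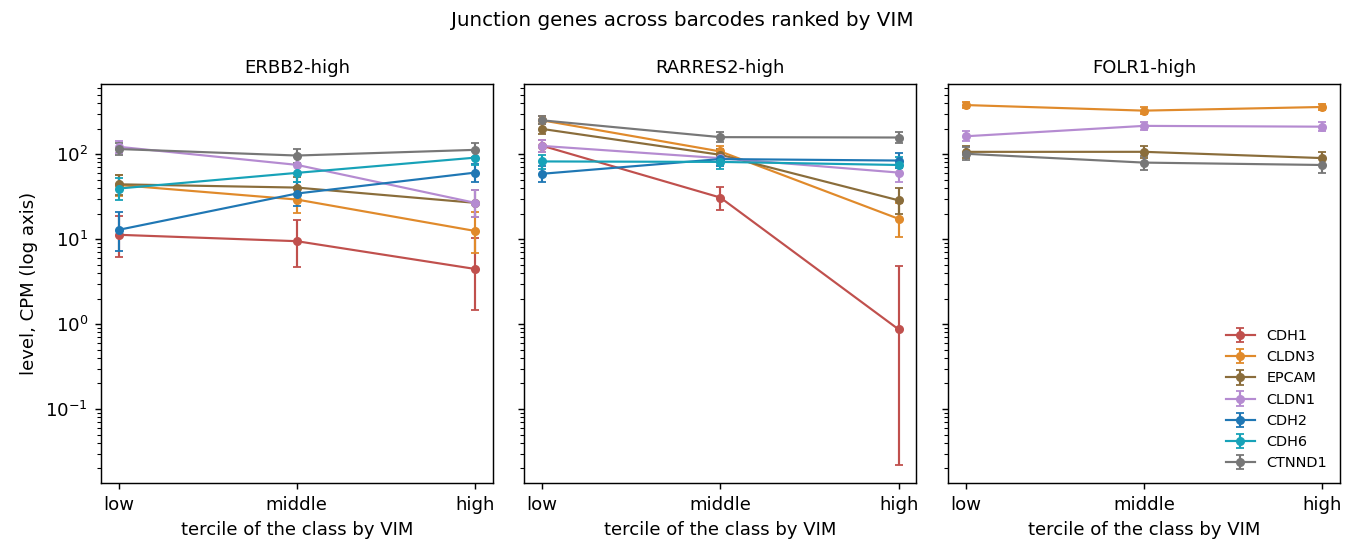
Level in CPM (log axis) of 7 genes in the low, middle and high tercile of each class by VIM, with exact Poisson 95% intervals; genes with fewer than 10 counts in a class are left out. In the RARRES2-high class CDH1 goes from 126 to 0.866 CPM while CDH2 and CDH6 stay between 58.7 and 87.4 CPM.

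**Figure D5:**
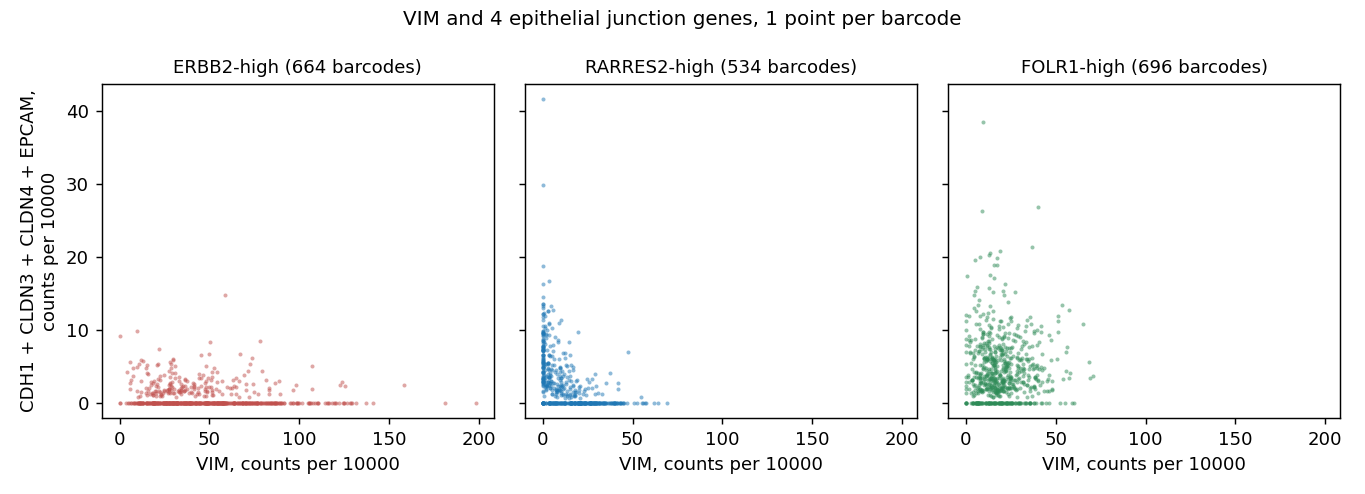
Summed counts of CDH1, CLDN3, CLDN4 and EPCAM per 10000 counts against VIM per 10000 counts, 1 point per barcode, in the 3 classes. In the RARRES2-high class high sums lie at low VIM, while FOLR1-high barcodes with VIM near the class median of 17.6 often have them.

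Listed genes named here for the RARRES2-high terciles were picked after their values were seen. ST14 had 111 counts in the low and 1 in the high tercile, MARVELD2, the gene of tricellulin, 35 and 1, and CLDN7 stood at 96.3 and 5.20 CPM. The splicing regulator ESRP1 had 40 counts in the low tercile (30.1 CPM) and no count in the high tercile. In the other direction ZEB1 stood at 4.51 and 47.6 CPM (10.6-fold, 4.55 to 30.0), SPARC at 28.6 and 236 CPM and FN1, the gene of fibronectin, at 24.8 and 214 CPM. TWIST1 did not follow them, at 12.8 and 12.1 CPM. Keratins KRT7, KRT8 and KRT18 differed by at most 1.29-fold, while KRT19 stood at 923 and 167 CPM. Values that could move with the terciles were as follows. Median depth was 6299 counts in the low, 6975 in the middle and 5920 in the high tercile, the mitochondrial share was 3.68%, 3.06% and 2.72%, and called doublets numbered 1, 4 and 7. FOLR1-high markers were found in 12.4% of barcodes of the low tercile and 2.81% of the high tercile, at a median of 0 counts in both, and ERBB2-high markers in 38.8% and 41.6%. Within the latter set NNMT stood at 18.1 CPM in the low and 82.3 CPM in the high tercile (4.56-fold, 2.89 to 7.46), while ERBB2 stood at 30.8 and 11.3 CPM (2.74-fold lower in the high tercile, 1.44 to 5.57). The rule's own TMEM100 differed as well, at 214 and 7.80 CPM, whereas RARRES2 stood at 1525 and 1689 CPM. Genes outside the lists differed strongly too. LCN2 had 857 counts in the low and 14 in the high tercile, the interferon genes IFNL1 129 and 0 and IFNB1 102 and 0, and the chemokine gene CCL5 84 and 2. By log2 ratio LCN2, IFNL1, CCL5 and IFNB1 ranked 5, 7, 8 and 11 from the lowest of 7697 entries. In the other direction HAPLN1 had 1 and 24 counts and BGN 5 and 92. The part of these in the result was not tested, but with doublets left out the same count of 5 was reached, and with the 107 barcodes without VIM left out 3 genes were called and CDH1 was still lower in the high tercile, at a log2 ratio of -4.31.

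The same division was made in the ERBB2-high class. Of 7 genes compared, CDH2 and CDH6 were called higher in the high-VIM tercile (2.12% of 8270 entries were) and CLDN1 and CLDN3 in the low-VIM tercile (4.44%). CDH2 stood at 12.8, 34.4 and 60.6 CPM from the low to the high tercile, a 4.72-fold ratio (2.71 to 8.71), and CDH6 at 39.3, 60.1 and 90.8 CPM (2.31-fold, 1.63 to 3.32). CLDN1 stood at 122, 74.8 and 26.7 CPM (4.57-fold lower in the high tercile, 3.07 to 7.0) and CLDN3 at 43.3, 29.2 and 12.5 CPM (3.48-fold, 1.90 to 6.78). EPCAM was 1.65-fold lower in the high tercile (1.04 to 2.67), and CTNND1 with TMX2 stood at 115, 96.2 and 112 CPM. CDH1 had 14 counts in the low and 5 in the high tercile, too few to compare. CLDN1 and CLDN3 were thus called lower at high VIM in both classes, but in the RARRES2-high class CLDN1 fell short of the 2-fold limit under 4 of 7 alternatives, with log2 ratios from -0.94 to -0.70. Whether the CDH2 and CDH1 patterns of the classes differ was not tested, since both came from the same library. Other values moved with these terciles as well. From the low to the high tercile the median depth was 5401, 4913 and 4703 counts, the mitochondrial share was 3.26%, 2.92% and 2.77%, and called doublets numbered 2, 5 and 5. FOLR1-high markers were found in 16.2%, 13.1% and 9.95% of barcodes and RARRES2-high markers in 21.2%, 16.3% and 20.8%, all at a median of 0 counts. Of the rule's own genes, ERBB2 stood at 499 CPM in the low and 315 CPM in the high tercile and NNMT at 606 and 1083 CPM. The proliferation gene MKI67 stood at 159 and 259 CPM, 1.63-fold higher in the high tercile (1.36 to 1.96), against 192 and 195 CPM in the RARRES2-high terciles. The part of these in the result was not tested, but the counts of 2 and 2 were the same with doublets left out. As in the RARRES2-high class, SPARC was higher at high VIM (28.1 and 196 CPM), and MARVELD2 (23.3 and 10.7 CPM) and the epithelial transcription factor gene EHF (24.1 and 3.56 CPM) were lower, while ZEB1 stood at 84.3 and 109 CPM with a ratio interval that included 1 (0.985 to 1.69). Some other listed genes followed the RARRES2-high class less closely or not at all. FN1 was only 1.40-fold higher at high VIM (1.15 to 1.70), against 8.62-fold in the RARRES2-high class. CLDN7 was 1.54-fold higher (0.712 to 3.41) and TWIST2 1.58-fold lower (0.741 to 3.52). Both were opposite in direction to the RARRES2-high class, but their intervals included 1. TWIST1, below the limit on mean level, was 2.88-fold lower (1.01 to 10.1). MARVELD2, EHF and these further genes were picked here after their values were seen.

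In the FOLR1-high class none of 4 genes was called in either direction, where 1.05% of 7204 entries were higher in the high-VIM tercile and 2.18% in the low-VIM tercile. VIM itself ran from 766 CPM in the low to 3439 CPM in the high tercile. CLDN3 stood at 378, 325 and 359 CPM, and EPCAM at 106, 106 and 89.8 CPM, both with low to high ratio intervals that included 1. CLDN1 stood at 162, 215 and 210 CPM, higher in the high tercile by 1.30-fold (1.08 to 1.56), and CTNND1 with TMX2 at 101, 79.5 and 74.5 CPM. Here MKI67 was called lower in the high tercile, at 249, 155 and 116 CPM (2.14-fold, 1.77 to 2.60). The median depth was 5123, 5642 and 5311 counts, the mitochondrial share 7.24%, 7.09% and 6.91%, and called doublets numbered 2, 3 and 1. ERBB2-high markers were found in 12.9%, 13.8% and 15.1% of barcodes and RARRES2-high markers in at most 0.862%. FOLR1 stood at 644 and 668 CPM in the low and high terciles. The part of these in the values was not tested.

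EPCAM did vary inside the FOLR1-high class, along another axis. Its barcodes differ in the secreted proteins CXCL14 and DEFB1, and 191 barcodes in which CXCL14 held at least 75% of the counts of both (3 counts or more) were set against 86 in which DEFB1 did. EPCAM had 16 counts in 8 of the 191 CXCL14 barcodes (15.4 CPM, 8.79 to 25) and 96 counts in 53 of the 86 DEFB1 barcodes (153 CPM, 124 to 187), and stood at 124 CPM in the 419 barcodes of neither. The DEFB1 to CXCL14 ratio was 9.96 (5.83 to 18.1), where 11.2% of 7182 entries were at least 2-fold higher in the DEFB1 barcodes and 5.74% in the CXCL14 barcodes. OCLN was also higher in the DEFB1 barcodes, with 13 counts against 5 (4.32-fold, 1.44 to 15.5). CLDN3 stood at 260 CPM in the CXCL14 barcodes and 405 CPM in the DEFB1 barcodes (1.56-fold, 1.31 to 1.85), and CLDN1 at 252 and 174 CPM (1.45-fold higher in the CXCL14 barcodes, 1.15 to 1.83). VIM stood at 2166 and 2191 CPM, a ratio of 1.01 (0.945 to 1.08). With at least 10 counts of both secreted proteins, which left 109 CXCL14 and 10 DEFB1 barcodes, the log2 ratio of DEFB1 to CXCL14 barcodes was 1.16 for OCLN, -1.05 for CLDN1 and 0.43 for VIM, against 2.11, -0.53 and 0.02. The median depth was 4862 counts in the CXCL14 barcodes and 6549 in the DEFB1 barcodes, and its part in the EPCAM shares of 4.19% and 61.6% of barcodes was not tested. CLDN3 was found in 67.5% and 87.2% of the same barcodes.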

How the data were processed

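One PromethION single-cell library of the pool of 3 lines was analysed. The authors deposited estimated counts (expected counts) per transcript and barcode, not normalized, with transcript positions and gene names. The series' design text names Isosceles, a long-read quantification package, and the submitters' processing notes name Cell Ranger 6.0.1 and GRCh38 without a role. For the aligner, the annotation release and the treatment of molecular identifiers, nothing is stated (not given in the sources used here). Intervals therefore cover counting error only, since counts may not be independent molecules.

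Counts were summed per gene entry (whole within 0.01) and per class of barcodes with numpy 2.4.6, scipy 1.17.1 and pandas 2.3.3, and scaled to CPM. Levels have exact Poisson intervals, ratios exact conditional binomial intervals and shares Clopper-Pearson intervals. A level of 0 was set to 3 counts in ratios, and pairs with at most 3 counts on both sides were not called. Because cells of 1 library are not replicates, no p-value was computed. Scrublet (scanpy 1.11.5, expected doublet rate 0.02) marked doublets. Exons come from GENCODE release 29 and promoter windows from RefSeq (GRCh38.p14), which matched CDH2, CLDN1, CLDN3, CLDN4, OCLN and VIM. The 10 genes, the lists and the rules were chosen with earlier results of these data known. A listed gene and a marker of another cell type are not reported here. All 10 genes are named, and listed genes are named by the largest ratios per list and direction, or as stated. Class share, depth, marker counts, doublets, scaling, filters and limits were varied in turn.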

Additional observations from a re-analysis of the deposited data

Results flagged for a closer look

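CLDN1 was lower at high VIM in 2 classes and slightly higher, without passing the 2-fold limit, in the other. Its log2 ratio of the high over the low VIM tercile was 0.38 in the FOLR1-high class, against -2.19 in the ERBB2-high and -1.04 in the RARRES2-high class. Each ratio's counting interval left out 1, but the difference between classes was not tested, since each class came from the same single library.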

How the results depend on the processing

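Under the alternatives run, none of the log2 ratios of the 10 genes that passed the 2-fold limit changed sign. Of counts of genes called between classes, that of the ERBB2-high over the RARRES2-high class went from 2 to 1 at 90% of the marker counts, at least 2000 counts per barcode, at least 10 marker counts, and without mitochondrial and ribosomal protein genes, with OCLN the gene lost, and to 0 at a 4-fold limit. At the 4-fold limit the counts were also 2 for the RARRES2-high over the ERBB2-high class, 1 for the FOLR1-high over the ERBB2-high class and 0 for the FOLR1-high over the RARRES2-high class. Between VIM terciles, for which all alternatives were chosen after seeing the data, 2 equal parts gave 1 gene higher in the high-VIM part of the ERBB2-high class (CDH2), and leaving out barcodes without VIM gave 3 in the low-VIM tercile of the RARRES2-high class. There CLDN1, at -1.04 (log2), was -0.70 with 2 equal parts, -0.86 without barcodes lacking VIM, -0.94 at 90% of the marker counts and -0.78 at 10 marker counts, all short of 2-fold. The other 122 counts of genes were within 1.5 times their value, and the EPCAM ratio between CXCL14 and DEFB1 barcodes stayed between 3.30 and 3.99 (log2). In that comparison, with at least 10 CXCL14 and DEFB1 counts, CLDN1 (-1.05), CTNND1 (-2.75) and VIM (0.43) moved out of their intervals and OCLN went from 2.11 to 1.16. Shares of barcodes depend on depth: 50 of 60 shares left their interval when not thinned or thinned to 4000 counts. Counts below about 50 per class limit CDH1 outside the RARRES2-high class, CLDN4 and OCLN. No paired analysis was possible because there was 1 library in each group and no replicate.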
